A study of Mus musculus with 10 samples.

Results

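SWI/SNF is a complex of many proteins that uses ATP to slide or evict nucleosomes and so changes which stretches of DNA are open. In C2C12 cells during and before muscle differentiation, 10 genes of its subunits were followed by name, and all 10 were found among the 35275 genes of the count table. They encode the 2 alternative ATPases (Smarca2, Smarca4), a core subunit (Smarcb1), the 3 SMARCD proteins (Smarcd1, Smarcd2, Smarcd3), the 2 large ARID proteins of the canonical complex (Arid1a, Arid1b) and the 2 actin-related subunits (Actl6a, Actl6b). Of these, 9 passed edgeR's filter on low counts and were tested, and Actl6b did not pass it. C2C12 cells are an established line of mouse myoblasts, which proliferate in rich serum and fuse into multinucleated myotubes once serum is reduced. The differentiating group held 5 libraries from cells on day 6 in medium with 2% horse serum, and the group before differentiation held 5 libraries from cells in medium with 10% fetal bovine serum. Both groups came from this single line, both media also held 1% antibiotics, and time, serum and cell state differ together between the groups and cannot be told apart.

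Many SWI/SNF subunits come in alternative forms encoded by related genes (paralogs), of which a complex holds a single one at each position. Smarca4 (BRG1) and Smarca2 (BRM) are alternative motors, Arid1a and Arid1b are alternative DNA-binding subunits, and Actl6a of dividing cells is replaced by Actl6b in neurons after their last division. Among the SMARCD proteins, SMARCD3 (BAF60c) is the form known from heart and skeletal muscle, where it binds MyoD in mouse myoblasts. The question put to these data was which subunit mRNAs differed in level between the conditions, and whether the balance between paralogs differed.

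Library totals were 15367909 to 20509280 counts (median 16570169) in differentiating cells and 16288532 to 21622527 (median 17889126) before differentiation. Levels are counts per 1000000 (CPM), with library totals rescaled by TMM (trimmed mean of M values), which takes the bulk of genes as level between libraries. Fold changes are differentiating over before differentiation on the log2 scale, with standard errors and p-values of the quasi-likelihood fit in edgeR, and p-values were adjusted (Benjamini-Hochberg) across all 13085 genes tested. At an adjusted p under 0.05, 79.8% of all genes tested were called, 40.1% higher and 39.7% lower, and the calls below are read against these shares. The labels were checked with marker genes. Myog, a transcription factor of terminal muscle differentiation, averaged 770.2 ± 81.2 CPM in differentiating cells and 4.42 ± 0.668 CPM before differentiation, and Ccna2, a cyclin of dividing cells, averaged 13.0 ± 2.28 CPM in differentiating cells and 231 ± 3.48 CPM before differentiation (SD, n = 5 each). Over 6 myotube markers the summed level was 8835 to 13149 CPM in differentiating libraries and 21.1 to 23.8 CPM before differentiation. Over 6 markers of dividing myoblasts it was 102 to 143 CPM in differentiating libraries and 1670.3 to 1829 CPM before differentiation. Within the differentiating group, replicates 1 and 2 stood apart from 3, 4 and 5 on the first principal component (49.5% of the variance of that group, scores of -24.3 and -24.4 against 12.2 to 18.7), so the tests were also run without either set. The labels do not say whether libraries of a condition came from separate cultures, so the p-values reflect only the variation among these libraries, which may be technical. Markers of other cell types differed too. Summed over 6 fibroblast markers (5 with a count in differentiating libraries, Thy1 having none, and 6 before differentiation) the level was 820.0 to 878 CPM in differentiating libraries and 97.3 to 106 CPM before differentiation. Over 6 adipocyte markers (1 with a count in differentiating libraries, 4 before differentiation, Cidec and Lep at 0 throughout) it was 6.65 to 10.3 CPM in differentiating libraries and 19.4 to 23.7 CPM before differentiation. The part of these genes in the results below was not tested. In bulk RNA, fewer cells of a type and less RNA per cell cannot be told apart.

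All 9 tested genes passed the test, 3 of them higher (Smarca2, Smarcd3, Arid1b) and 6 lower (Smarca4, Smarcb1, Smarcd1, Smarcd2, Arid1a, Actl6a) in differentiating cells. In each of the 3 paralog sets with more than a single expressed gene, at least 1 gene was higher and at least 1 was lower. Over all genes tested, 79.8% were called, 40.1% higher and 39.7% lower. How often other paralog sets split in this way was not tested. The libraries of the conditions did not overlap for any of the 9 genes, as was the case for 69.1% of all genes tested. The median log2 fold change of the 9 was -0.67, against 0.015 over all genes tested, and the median size without sign was 0.76 against 0.64. Their fold changes lay between percentile 10.8 (Actl6a) and percentile 84.3 (Smarca2) of all genes tested. With over 1 log2 as an added limit, Smarca2 (higher), Smarcd2 and Actl6a (both lower) were left of the 9, against 32.8% of all genes.

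**Figure D1:**
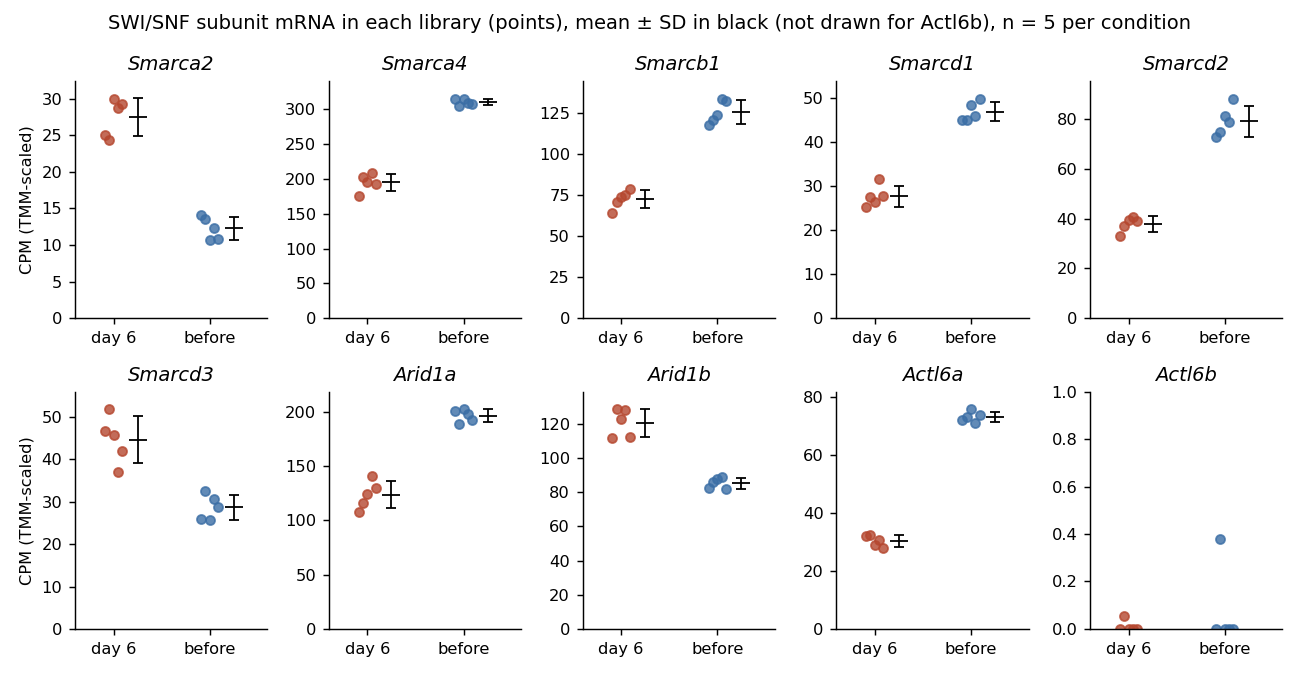
Scaled CPM (y axis, linear from 0, a separate scale for each gene) of the 10 subunit genes in the 5 differentiating (day 6, red) and the 5 before differentiation (blue) libraries. Points are libraries and black marks are mean ± SD (not drawn for Actl6b). Smarca2, Smarcd3 and Arid1b lie higher on day 6 in every library, Actl6b is at 0 in 4 of 5 libraries of each condition, and the other 6 lie lower in every library.

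The ATPases differed in opposite directions, and Smarca4 stayed the more abundant in both conditions. Smarca2 (chr19:26605115-26778321, mm10, plus strand) had 25.1, 24.3, 29.99, 28.7 and 29.3 CPM in differentiating replicates 1 to 5, against 14.1, 13.5, 10.6, 12.3 and 10.8 CPM before differentiation. Every differentiating library lay above every library before differentiation, with a log2 fold change of 1.16, standard error 0.0978 and adjusted p = 4.01e-09. Smarca4 (chr9:21616169-21704230, plus strand) had 176, 202, 196, 209 and 193 CPM in differentiating cells, against 315, 305, 315, 309 and 307 CPM before differentiation. Again the conditions did not overlap, and the log2 fold change was -0.67, with a standard error of 0.0488 and adjusted p = 5.26e-10. Before differentiation the Smarca4 libraries lay close together, with an SD of 4.74 CPM around a mean of 310.2 CPM.

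To set the paralogs against each other within a library, each count was divided by the gene length of the table, and the share of a gene in the sum over its family was taken. Such a share does not depend on how library totals are scaled. Smarca2 made up 13.3%, 11.5%, 14.1%, 12.9% and 14.1% of the ATPase sum in differentiating libraries, against 4.61%, 4.56%, 3.51%, 4.13% and 3.65% before differentiation. The mean share was 13.2% ± 1.09 in differentiating cells and 4.09% ± 0.508 before differentiation (SD, n = 5 each), a difference of 9.09 percentage points (exact two-sided permutation test over libraries, p = 0.00794, adjusted p = 0.0102 over 9 families). With 5 libraries against 5, p = 0.00794 is the smallest value this exact test can give. Smarca2 gained share without becoming the leading ATPase mRNA, and the summed level of both genes was 35.3 ± 2.13 CPM per kilobase in differentiating cells and 50.7 ± 0.786 CPM per kilobase before differentiation.

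Smarcb1 (SNF5), present in the canonical and PBRM1-containing complexes and known as a tumour suppressor, was lower in differentiating cells. The gene (chr10:75896769-75921617, minus strand) had 64.4, 71.2, 73.9, 75.3 and 78.7 CPM in differentiating libraries, against 118, 121, 124, 134 and 133 CPM before differentiation. The conditions were far apart relative to their spread, at 72.7 ± 5.37 CPM in differentiating cells and 126 ± 7.24 CPM before differentiation (SD, n = 5 each), with a log2 fold change of -0.79, standard error 0.0587 and adjusted p = 6.37e-10. The table gives this gene a length of 7441 bases, 4.48 times that of the transcript with its longest coding sequence (1660 bases, GENCODE M21), so its level per kilobase is not compared with other genes below.

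The 3 SMARCD genes did not differ in the same direction. Smarcd3 (chr5:24590818-24602012, minus strand), the muscle form, had 46.7, 51.8, 45.8, 37.1 and 42.0 CPM in differentiating libraries, against 25.9, 32.6, 25.7, 30.6 and 28.8 CPM before differentiation. All differentiating libraries were above all others, although the highest library before differentiation (32.6 CPM) lay near the lowest differentiating library (37.1 CPM). Smarcd3 was 1.56-fold higher, with a log2 fold change of 0.64, standard error 0.0897 and adjusted p = 3.35e-06. Without differentiating replicates 1 and 2 its log2 fold change was 0.55, and without 3, 4 and 5 it was 0.82, the call being kept in both. Its exons overlap 2466 bases of exons of Chpf2, a gene on the opposite strand, and whether reads were counted by strand is not stated. The overlap covers 48.2% of the exon bases of Smarcd3 (GENCODE M21). Chpf2 averaged 45.0 ± 6.44 CPM in differentiating cells and 39.5 ± 2.76 CPM before differentiation, with a log2 fold change of 0.19 that did not pass the test (adjusted p = 0.0593), and how many reads the genes share was not tested.

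Smarcd2 (BAF60b, chr11:106263179-106272972, minus strand), a form known from blood cell development, had 32.9, 37.0, 39.4, 40.8 and 39.2 CPM in differentiating libraries, against 72.7, 74.7, 81.5, 78.9 and 88.3 CPM before differentiation. The log2 fold change was -1.07 with a standard error of 0.0685 (adjusted p = 8.41e-11), the lowest of the 3. Smarcd1 (BAF60a, chr15:99702287-99713995, plus strand), the form found in most tissues, had 25.3, 27.6, 26.3, 31.5 and 27.6 CPM in differentiating libraries, against 45.0, 45.0, 48.4, 45.9 and 49.8 CPM before differentiation. It was 1.69-fold lower, with a log2 fold change of -0.76, standard error 0.0678 and adjusted p = 8.93e-09. Neither gene had overlapping libraries between the conditions.

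Within the family, the share of Smarcd3 was 38.2%, 38.2%, 34.9%, 28.4% and 32.5% in differentiating libraries, against 14.4%, 17.2%, 13.1%, 15.8% and 13.7% before differentiation. This was a mean of 34.4% ± 4.15 in differentiating cells and 14.9% ± 1.65 before differentiation (SD, n = 5 each), a difference of 19.6 percentage points (exact permutation test, p = 0.00794, adjusted p = 0.0102). Smarcd3 was picked as the gene to test in this family, and the shares of the other SMARCD genes were not tested. The share of Smarcd2 was 40.1% ± 2.64 in differentiating cells and 56.2% ± 1.41 before differentiation, and that of Smarcd1 was 25.5% ± 1.95 in differentiating cells and 29.0% ± 0.774 before differentiation. The summed level of the 3 genes was 34.4 ± 1.30 CPM per kilobase in differentiating cells and 51.3 ± 2.91 CPM per kilobase before differentiation, so the share of Smarcd3 was larger within a smaller sum.

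Which SMARCD mRNA led on day 6 depended on the length used. By the lengths of the table, Smarcd2 stood at 13.8 ± 1.12 CPM per kilobase in differentiating cells, Smarcd3 at 11.8 ± 1.46 and Smarcd1 at 8.78 ± 0.743 (SD, n = 5), and the libraries of Smarcd2 (11.99 to 14.8) and Smarcd3 (9.83 to 13.7) overlapped. The 3774 bases that the table gives Smarcd3 equal its longest annotated transcript, which retains an intron, whereas the transcript with the longest coding sequence has 1735 bases. By coding transcripts, Smarcd3 stood at 25.8 ± 3.17 CPM per kilobase in differentiating cells, above Smarcd2 (13.8 ± 1.12) and Smarcd1 (8.37 ± 0.708), and its share was 53.6% ± 4.65 in differentiating cells and 27.8% ± 2.61 before differentiation. Which transcripts were present was not measured, and the leading gene changed with the length. A length scales a gene alike in every library. With Smarcd3 higher and Smarcd1 and Smarcd2 lower, the share of Smarcd3 was thus larger on day 6 whatever the lengths. What the overlap with Chpf2 did to the level of Smarcd3 was not tested.

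The promoters of the 3 genes are shown because these paralogs differed in opposite directions. Each is a RefSeq window (GRCm38.p6) from 250 bases before to 50 bases after an annotated start, 5′ to 3′ on the strand of the gene. Capitals mark CAGCTG, the E-box letters preferred by MyoD and myogenin, and the E2F letters TTTGGCGC, TTTCGCGC, TTTGCCGC or TTTCCCGC, each searched on both strands.
Smarcd3 (chr5:24601953-24602252, minus strand): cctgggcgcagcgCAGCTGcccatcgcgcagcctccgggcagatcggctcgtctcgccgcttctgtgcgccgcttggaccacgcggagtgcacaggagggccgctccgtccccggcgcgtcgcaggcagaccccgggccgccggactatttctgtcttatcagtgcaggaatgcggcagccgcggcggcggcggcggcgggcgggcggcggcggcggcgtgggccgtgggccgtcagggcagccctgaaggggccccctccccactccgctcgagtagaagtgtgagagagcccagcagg
Smarcd2 (chr11:106267583-106267882, minus strand): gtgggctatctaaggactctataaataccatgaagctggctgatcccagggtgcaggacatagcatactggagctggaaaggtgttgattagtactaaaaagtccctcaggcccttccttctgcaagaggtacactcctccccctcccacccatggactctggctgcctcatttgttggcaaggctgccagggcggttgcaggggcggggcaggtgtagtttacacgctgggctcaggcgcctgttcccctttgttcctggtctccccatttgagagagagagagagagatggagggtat
Smarcd1 (chr15:99702037-99702336, plus strand): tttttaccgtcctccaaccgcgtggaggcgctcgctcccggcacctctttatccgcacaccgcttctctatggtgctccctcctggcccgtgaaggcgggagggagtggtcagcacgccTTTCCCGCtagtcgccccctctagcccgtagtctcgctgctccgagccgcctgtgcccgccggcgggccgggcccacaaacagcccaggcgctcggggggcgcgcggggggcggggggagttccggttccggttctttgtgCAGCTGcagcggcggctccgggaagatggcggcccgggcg
Smarcd3 held a CAGCTG that begins 237 bases before the start, Smarcd1 held a CAGCTG that begins 10 bases after the start and E2F letters (TTTCCCGC) 131 bases before it, and Smarcd2 held none of these letters. Over all 32851 windows of the same length, 16.3% held CAGCTG and 2.27% held an E2F string. The looser E-box pattern CANNTG (N being any base) occurred 3 times in the Smarcd2 window and 1 time each in those of Smarcd3 and Smarcd1. It was held by 72.3% of all windows. Thus CAGCTG stood in a gene that was higher and in a gene that was lower, and a match of letters is not evidence of binding. All 10 genes had a window, Arid1a had 2, and of these 11 windows 2 held CAGCTG (Smarcd1 and Smarcd3) and 2 held E2F letters (Smarcd1 and the window of Arid1a at the downstream start). The Smarcd2 window lies inside the gene span that the count table gives, so the 5′ end of that span is not covered by it.

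The ARID genes also differed in opposite directions. Arid1b (chr17:4994332-5347656, plus strand) had 112, 129, 123, 128 and 113 CPM in differentiating libraries, against 82.5, 85.8, 87.9, 89.0 and 81.7 CPM before differentiation. It was 1.41-fold higher with no overlap between conditions, with a log2 fold change of 0.50, standard error 0.0536 and adjusted p = 1.09e-07, the smallest change in size among the 9 genes. Arid1a (chr4:133679008-133756769, minus strand), a gene often mutated in cancers, had 108, 116, 124, 141 and 129 CPM in differentiating libraries, against 201, 188, 202, 199 and 193 CPM before differentiation. It was 1.59-fold lower, with a log2 fold change of -0.67, standard error 0.0614 and adjusted p = 1.28e-08. In counts the genes came close to each other on day 6, at 121 ± 8.26 CPM for Arid1b and 124 ± 12.6 CPM for Arid1a (SD, n = 5).

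Per kilobase of the table, Arid1b made up 42.8%, 44.5%, 41.7%, 39.7% and 38.6% of the pair in differentiating libraries, against 22.9%, 24.8%, 23.9%, 24.5% and 23.4% before differentiation. The difference of the means was 17.6 percentage points (exact permutation test, p = 0.00794, adjusted p = 0.0102). Arid1a therefore stayed ahead by this length in every library. With the lengths of the coding transcripts (7309 bases for Arid1b in place of 11325, and 8187 for Arid1a under both), the share of Arid1b was 52.3% ± 2.42 in differentiating cells and 32.7% ± 0.916 before differentiation (SD, n = 5 each). As for Smarcd3, the order on day 6 depended on the length. The direction of the difference could not change with it, since a length scales a gene alike in every library.

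**Figure D2:**
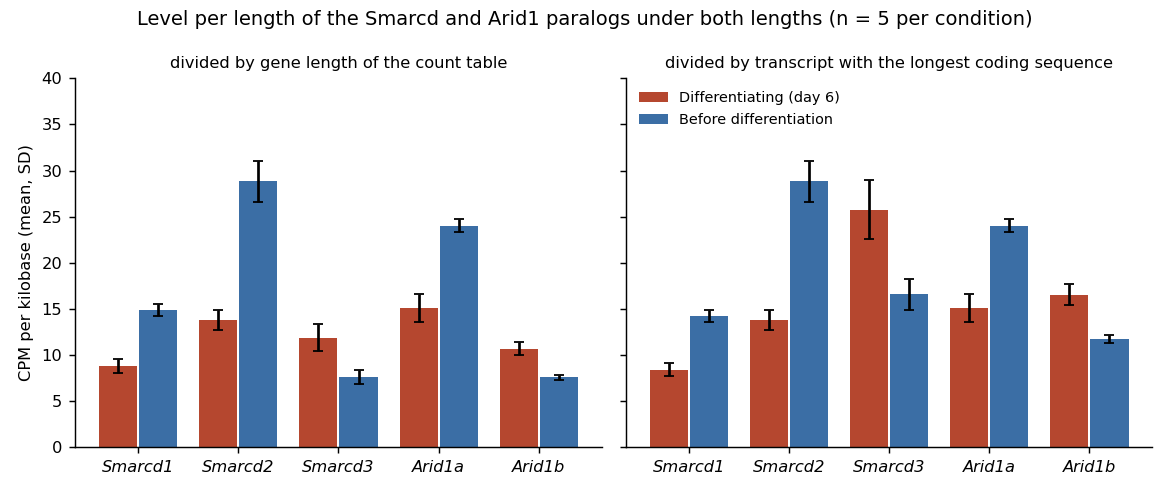
Mean CPM per kilobase (y axis, bars from 0, error bars SD, n = 5) of the Smarcd and Arid1 genes in differentiating cells (red, left bar of each pair) and before differentiation (blue), by the gene length of the count table (left panel) and by the transcript with the longest coding sequence (right panel). Smarcd3 on day 6 is at 11.8 in the left panel and 25.8 in the right one. The direction of each difference is the same in both by construction, since a gene is divided by the same length in both conditions.

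No exchange of the actin-related subunits was detectable at this depth. Actl6a (BAF53a, chr3:32708546-32726968, plus strand), which SWI/SNF shares with the INO80 and TIP60 complexes, had 32.1, 32.6, 29.0, 30.6 and 27.8 CPM in differentiating libraries, against 72.0, 73.2, 75.9, 71.2 and 74.0 CPM before differentiation. Among the 9 genes this was the largest decrease, 2.41-fold, with a log2 fold change of -1.27, standard error 0.0574 and adjusted p = 5.49e-13. Its exons share 452 bases with those of Mrpl47 on the opposite strand, which was also lower (log2 fold change -0.85, adjusted p = 2.84e-07), and how many reads these genes share was not tested. Actl6b (BAF53b, chr5:137553517-137569582, plus strand), the neuronal form, had 1 count over the 5 differentiating libraries and 7 counts over the 5 libraries before differentiation, and all of them fell in replicate 2 of each condition. These counts came to 0.0534 CPM in differentiating replicate 2 and 0.377 CPM in replicate 2 before differentiation, and the gene was at 0 counts in the other 8 libraries. No fold change is given, since the remaining 4 libraries of each condition had no count, and Actl6a held at least 99.4% of the pair in every library. Of 10 neuronal markers, 7 had a count in each condition, Rbfox3, Snap25 and Gad1 had none in any library, and the summed level was 70.2 to 84.2 CPM in differentiating libraries and 428 to 481 CPM before differentiation. Only 4 of the 10 passed the filter on low counts, 3 of them lower and 1 not called, so the sum rests on few genes.

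**Figure D3:**
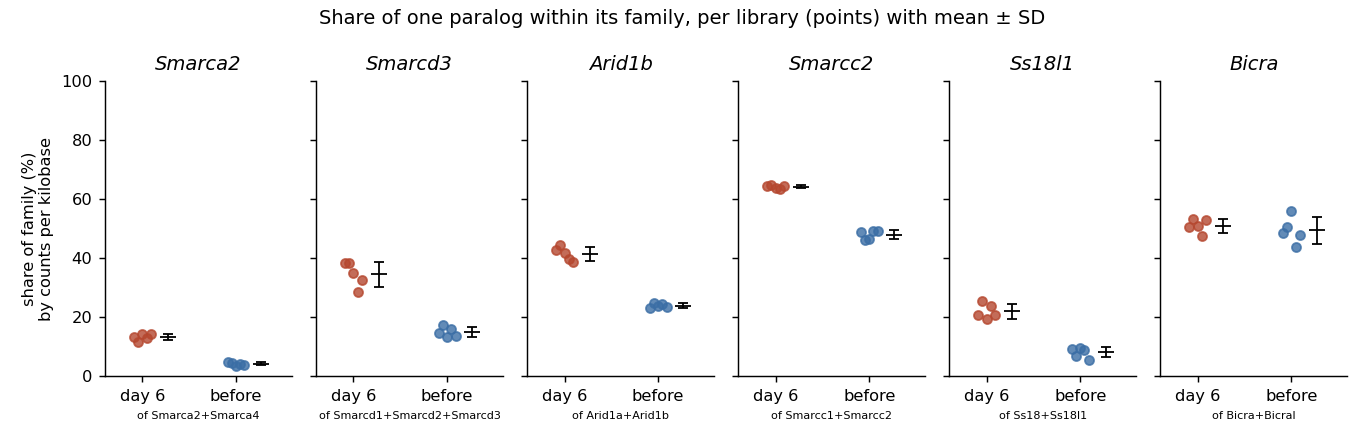
Share (y axis, percent, 0 to 100) of a paralog in the summed counts per kilobase of its family, in the 5 differentiating (day 6, red) and the 5 before differentiation (blue) libraries. Points are libraries and black marks are mean ± SD. Smarca2, Smarcd3, Arid1b, Smarcc2 and Ss18l1 have larger shares on day 6 with no overlap, whereas Bicra overlaps between the conditions.

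Across the 9 tested genes, levels per kilobase of table length in differentiating cells ran from Smarca4 (30.6 ± 1.95 CPM per kilobase) over Actl6a (15.5 ± 1.02), Arid1a (15.1 ± 1.54), Smarcd2 (13.8 ± 1.12), Smarcd3 (11.8 ± 1.46), Arid1b (10.7 ± 0.729) and Smarcd1 (8.78 ± 0.743) to Smarca2 (4.65 ± 0.437), leaving out Smarcb1 (SD, n = 5). Before differentiation the order was Smarca4 (48.7 ± 0.744), Actl6a (37.3 ± 0.915), Smarcd2 (28.8 ± 2.24), Arid1a (24.0 ± 0.715), Smarcd1 (14.9 ± 0.689), Smarcd3 (7.61 ± 0.792), Arid1b (7.54 ± 0.284) and Smarca2 (2.08 ± 0.267). Neighbours such as Actl6a and Arid1a in differentiating cells, and Smarcd3 and Arid1b before differentiation, lay within each other's SD. Among the genes ranked, Smarca4 stood at the top and Smarca2 at the bottom in both conditions. The places of Smarcd3 and Arid1b depend on the length used. By coding transcripts, with Smarcb1 still left out, Smarcd3 (25.8 ± 3.17) and Arid1b (16.5 ± 1.13) had the next highest means after Smarca4 in differentiating cells. The libraries of Arid1b (15.3 to 17.6) overlapped those of Actl6a (13.8 to 16.2) and Arid1a (13.2 to 17.2). Smarcb1, with 72.7 CPM over 1660 bases, would by this length stand above Smarca4, with 195 CPM over 6376 bases. Before differentiation, by coding transcripts, Smarcd3 (16.5 ± 1.72) stood above Smarcd1 (14.2 ± 0.657).

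The calls of the 9 genes did not turn on a single library or setting. Over 20 alternatives for each gene, among them DESeq2, other scalings and filters, and leaving out libraries, all 180 results kept their direction and stayed past the threshold. The differentiating replicates that stood apart moved the values a little. Without replicates 1 and 2 the log2 fold change was 1.27 for Smarca2, -0.57 for Arid1a and -0.98 for Smarcd2, and without replicates 3, 4 and 5 it was 1.05 for Smarca2, -0.77 for Arid1a and -1.14 for Smarcd2.

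Among 21 further SWI/SNF subunits, 19 were tested, of which 8 were higher and 10 lower in differentiating cells, with a median log2 fold change of -0.19. Over all genes tested, 40.1% were higher and 39.7% lower. The 8 include Dpf3, which passed the filter on low counts only through its differentiating libraries. Bcl11a and Bcl11b, subunits known from neurons and lymphocytes, were not tested, since Bcl11a had 1 count over all libraries and Bcl11b had none. The scaffold subunits Smarcc1 (BAF155) and Smarcc2 (BAF170) form the core dimer. Smarcc1 averaged 127 ± 7.53 CPM in differentiating cells and 228 ± 10.1 CPM before differentiation (SD, n = 5 each, log2 fold change -0.84, standard error 0.0513, adjusted p = 3.98e-11). Smarcc2 averaged 195 ± 7.66 CPM in differentiating cells and 179.6 ± 6.28 CPM before differentiation, a log2 fold change of 0.12 (adjusted p = 0.0217). That call was lost without replicate 2 before differentiation (adjusted p = 0.0820) or without differentiating replicate 4 (adjusted p = 0.0554). The share of Smarcc1 in the pair was 35.8% ± 0.507 in differentiating cells and 52.1% ± 1.51 before differentiation, a difference of -16.3 percentage points (exact permutation test, p = 0.00794, adjusted p = 0.0102), so here Smarcc2 led on day 6. By coding transcripts Smarcc2 led on day 6 as well (68.5% ± 0.476), but Smarcc2 also led before differentiation (52.7% ± 1.51).

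The DPF and PHF10 subunits carry paired PHD fingers that read histone tails. Phf10, a subunit of the PBRM1-containing complex, had 67.3, 64.3, 142, 153 and 132 CPM in differentiating libraries, against 35.7 to 40.7 CPM before differentiation (log2 fold change 1.56, standard error 0.273, adjusted p = 0.000593). Replicates 1 and 2 of the differentiating cells lay well below the other 3, and the log2 fold change was 1.93 without them and 0.85 without replicates 3, 4 and 5, past the threshold in both. Phf10 overlaps 470 exon bases of 1600012H06Rik on the opposite strand, which was itself 1.63-fold higher (adjusted p = 1.13e-07), and the number of shared reads was not tested. Dpf2, the DPF protein of most cells, averaged 66.0 ± 3.996 CPM in differentiating cells and 84.3 ± 3.59 CPM before differentiation (log2 fold change -0.35, adjusted p = 9.68e-06). Dpf1, known from neurons, averaged 2.11 ± 0.928 CPM in differentiating cells and 7.18 ± 0.666 CPM before differentiation (log2 fold change -1.76, adjusted p = 8.70e-07), with a share in the family of 1.47% ± 0.882 in differentiating cells and 6.14% ± 0.706 before differentiation (exact permutation test, p = 0.00794, adjusted p = 0.0102). The larger shares of this family were described without a test. Phf10 made up 56.1% ± 11.7 in differentiating cells and 25.8% ± 0.529 before differentiation, and Dpf2 made up 42.0% ± 10.96 in differentiating cells and 68.0% ± 0.632 before differentiation. By the lengths of the table, Dpf2 led in differentiating replicates 1 and 2, at 53.7% and 54.3%. In replicates 3, 4 and 5 Phf10 led, at 65.1%, 65.4% and 63.3%. By coding transcripts (1663 bases for Phf10 in place of 3901, 2406 for Dpf2 in place of 3314) Phf10 led in every differentiating library. Phf10 stood at 38.7 to 91.8 CPM per kilobase there, against 25.6 to 29.2 for Dpf2. Before differentiation Dpf2 led by either length, at 57.2% ± 0.609 by coding transcripts. Dpf3 (BAF45c), known from heart and skeletal muscle in mouse and zebrafish, had 59 counts over the differentiating libraries and 11 counts over those before differentiation. These were 0.678 ± 0.135 CPM in differentiating cells and 0.126 ± 0.138 CPM before differentiation. Its log2 fold change of 2.42 (standard error 0.579, adjusted p = 0.000973) therefore rests on few counts. Dpf3 passed the filter on low counts only through its differentiating libraries, so a call in the higher direction was favoured in advance. Its p-values are not read as evidence of a difference. The log2 fold change was 2.38 without differentiating replicates 3, 4 and 5 (adjusted p = 0.00581) and 1.63 without replicates 2 and 3 before differentiation (adjusted p = 0.00858). Without differentiating replicate 1, replicate 2 or both the gene did not pass the filter on low counts and has no value.

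Ss18, part of the canonical and BRD9-containing complexes, averaged 40.7 ± 3.10 CPM in differentiating cells and 88.7 ± 6.40 CPM before differentiation (log2 fold change -1.12, adjusted p = 1.78e-11). Its relative Ss18l1 (CREST), which takes its place in neurons, averaged 11.9 ± 1.34 CPM in differentiating cells and 8.04 ± 1.65 CPM before differentiation (log2 fold change 0.57, adjusted p = 0.00105). Ss18 made up 78.1% ± 2.44 of the pair in differentiating cells and 92.0% ± 1.71 before differentiation (exact permutation test, p = 0.00794, adjusted p = 0.0102), and it remained the main form. Among the forms introduced here as neuronal, which need not be all of them, Ss18l1 was thus higher, Dpf1 was lower and Actl6b was near 0 counts. The BCL7 genes differed little, at -0.32 on the log2 scale for Bcl7a (adjusted p = 0.000374), 0.23 for Bcl7b (adjusted p = 0.00522) and -0.36 for Bcl7c (adjusted p = 0.000566), and the call of Bcl7c was lost without differentiating replicates 3, 4 and 5 (adjusted p = 0.0753). Bicra and Bicral, alternative subunits of the BRD9-containing complex, were both higher, Bicra by 0.37 in log2 units (adjusted p = 0.00210) and Bicral by 0.29 (adjusted p = 0.00219). The share of Bicra was 51.0% ± 2.36 in differentiating cells and 49.3% ± 4.48 before differentiation, which overlapped and did not pass the exact permutation test (p = 0.516, adjusted p = 0.580).

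Actb, which is a SWI/SNF subunit but serves mainly as cytoskeletal actin, had the lowest log2 fold change of the complex, at 1092 ± 61.6 CPM in differentiating cells and 4463 ± 112 CPM before differentiation (log2 fold change -2.03, standard error 0.0511, adjusted p = 1.57e-16). Pbrm1, which defines the PBRM1-containing complex (PBAF), averaged 214 ± 6.64 CPM in differentiating cells and 215 ± 15.4 CPM before differentiation, and it was the single subunit tested that was not called (log2 fold change -0.0052, approximate 95% interval -0.11 to 0.098, adjusted p = 0.930). Over 9 families tested for their share, 7 passed the threshold and those of Actl6a and Bicra did not. Families of other genes were not tested in this way, and 79.8% of all genes tested were called singly. The 7 are therefore not read as particular to this complex. Counted with the 9 genes described first, 11 subunits were higher (Dpf3 included), 16 were lower and 1 was not called among 28 tested.

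**Figure D4:**
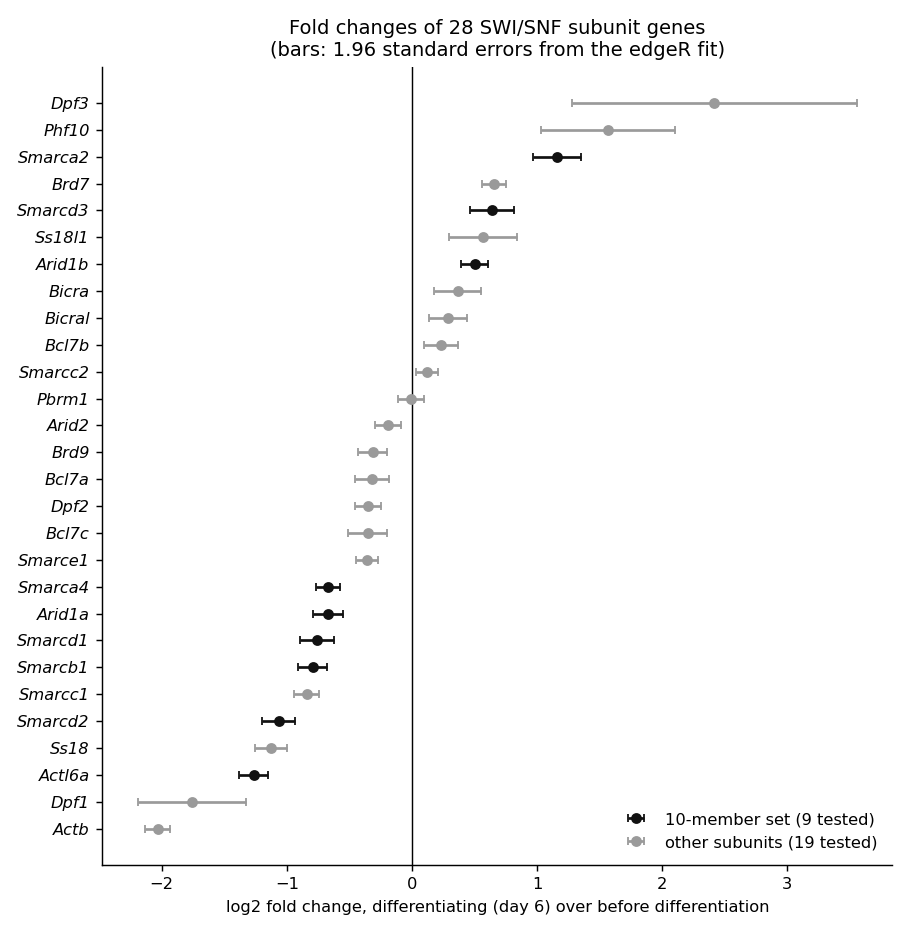
Log2 fold change, differentiating (day 6) over before differentiation (x axis), of the 28 SWI/SNF subunit genes tested, ordered from the highest at the top. Points are edgeR estimates and bars are approximate 95% intervals, black for the 9 tested genes of the 10 followed by name and grey for the other 19. Values run from -2.03 (Actb) to 2.42 (Dpf3), and the paralogs Smarca2 and Smarca4, Smarcd3 and Smarcd2, and Arid1b and Arid1a lie on opposite sides of 0. Dpf3 passed the filter on low counts only through its differentiating libraries.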

How the data were processed

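Messenger RNA was measured by paired-end RNA-seq in 10 libraries of C2C12 cells, grouped by the stage in the sample labels, with the day taken from the paper. The authors deposited raw counts per gene, made by filtering reads with Trimmomatic, mapping to mm10 with STAR 2.5 and counting uniquely mapped reads with HTSeq 0.6.1. The library kit is given as directional in the paper's methods but not in the labels, and the strand setting of the counting is not given in the sources used here. The authors also deposited FPKM values, which equal the counts per 1000 bases of gene length and per 1000000 counts and were used only for that check. The deposited gene length, another column of the table, was used for levels per kilobase.

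The members and gene lists were chosen with earlier results of these data known. Fits used R 4.3.3 and edgeR 4.0.16 (filterByExpr, TMM, robust quasi-likelihood test, condition alone), with DESeq2 1.42.0 as an alternative, adjusted over all genes tested at a threshold of 0.05. Standard errors were derived from the fold change and the F statistic. Shares were tested by exact permutation in SciPy 1.17.1 and adjusted over 9 families. The gene tested in a family was the first in alphabetical order, except that Smarcd3 and Arid1b were picked for the SMARCD and ARID families. In a pair either gene gives the same p-value, but among the SMARCD genes the pick matters. By the alphabet it would have been Smarcd1, whose share differed by -3.46 points and was not tested. Named genes were the 10 members, other subunits that are paralogs or were called with over 1 log2, the highest and lowest called gene of each other remodeler list, and marker genes. Brd7, Brd9, Arid2 and Smarce1 were named outside this rule, after their values were seen, as were Pbrm1, Tcf3, Bcl11a and Bcl11b and the neighbours Chpf2, Mrpl47 and 1600012H06Rik. Of 139 list entries, 3 were found through their gene identifiers (Bicra, Bicral and Mymk, under older names in the table). Counts of libraries of a condition differed by more than sampling noise (chi-square per degree of freedom 3.27 to 29.3 in differentiating cells and 4.44 to 25.1 before differentiation), so none was treated as a library deposited again, which does not show that they came from separate cultures. Same-numbered libraries did not deviate together, so numbers were not taken as pairs.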

Additional observations from a re-analysis of the deposited data

Results flagged for a closer look

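Libraries far from the other 4 of their condition were found in 8 of 77 sets of 5 values checked, where chance gives about 1 in 20. Of these, 5 rest on 1 to 7 counts of genes that are otherwise at 0, all in replicates numbered 2. Actl6b had 0.0534 CPM in differentiating replicate 2 (0 in the others) and 0.377 CPM in replicate 2 before differentiation (0 in the others), so that the share of Actl6a was 99.8% in differentiating replicate 2 and 99.4% in replicate 2 before differentiation. Bcl11a had 0.0539 CPM in replicate 2 before differentiation. Dpf3 had 0.914 CPM in differentiating replicate 3, against at most 0.643 CPM in the others. Smarcc2 had 169 CPM in replicate 2 before differentiation, against at least 181 CPM in the others. Smarce1 had 175 CPM in replicate 1 before differentiation, against at most 166 CPM in the others. What sets these libraries apart was not tested.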

How the results depend on the processing

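Each of the 9 tested genes kept its direction and its call under DESeq2, other scaling factors, library totals alone, other filters, the replicate block, each library left out and the sets of libraries left out. The highest adjusted p among them was that of Smarcd3 without replicates 2 and 3 before differentiation (adjusted p = 5.47e-05). With over 1 log2 added to the threshold, the counts were 2370 higher and 1925 lower over all genes, 1 higher and 2 lower among the followed genes, and 2 higher (Dpf3 included) and 3 lower among the other subunits. The share differences without differentiating replicates 3, 4 and 5 were 8.31 points for Smarca2, 23.3 for Smarcd3 and 19.8 for Arid1b, with adjusted p = 0.122 by the exact permutation test, where 2 libraries against 5 cannot go below p = 0.0952. With the replicate number as a block (exact sign-flip test of 5 pairs, which cannot go below p = 0.0625) they were 9.09, 19.6 and 17.6 points with adjusted p = 0.0804. The families tested on Smarcc1, Dpf1, Ss18 and Bcl7a lost their calls in the same 2 settings. The correlation of deviations between same-numbered libraries was -0.0453 to 0.00996, so the numbers are not evidence of pairing. The difference in the share of Actl6a, which did not pass the test, was 0.0861 points and turned to -0.0404 points without replicate 2 before differentiation, or without replicates 2 and 3, since the counts of Actl6b lie in that library. Over the libraries left out in turn it ran from -0.0404 to 0.127. By coding transcripts, a length chosen after seeing the data, the share of Bcl7a no longer passed (difference -0.50 points, adjusted p = 0.122), and the other families kept their calls. For Smarcd3, and for pairs whose libraries did not overlap, the direction could not change with the length, so keeping it is no check there. Smarcc2 also lost its call with library totals alone (adjusted p = 0.0591), without differentiating replicates 3, 4 and 5 (adjusted p = 0.0617) and without replicates 2 and 3 before differentiation (adjusted p = 0.161). Pbrm1, which was not called, changed sign in 14 of 20 alternatives and was called in none. Depth limits Actl6b, Bcl11a, Bcl11b and Dpf3.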

Other observations

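In each of 3 lists of other chromatin remodelers more genes were lower than higher in differentiating cells. Of 10 tested ISWI genes, 2 were higher and 6 lower (median log2 fold change -0.46). Baz1a, an accessory subunit of ISWI, averaged 47.3 ± 3.88 CPM in differentiating cells and 109 ± 5.69 CPM before differentiation (SD, n = 5 each, log2 fold change -1.21, adjusted p = 2.92e-12), and Rsf1, which pairs with the ISWI ATPase, was the highest of that list (log2 fold change 0.43, adjusted p = 9.75e-07). Of 21 CHD and NuRD genes, 6 were higher and 12 lower (median -0.27), between Chd5 (log2 fold change 1.44, adjusted p = 0.00140, libraries of the conditions overlapping), a remodeler known from neurons and testis, and the deacetylase Hdac1 (log2 fold change -1.40, adjusted p = 3.80e-12). Among 28 tested members of INO80, SRCAP and TIP60, 4 were higher and 19 lower (median -0.32). Ruvbl2, an ATPase that these complexes share, averaged 27.8 ± 0.704 CPM in differentiating cells and 101 ± 5.94 CPM before differentiation (log2 fold change -1.86, adjusted p = 1.48e-15), and Ino80c was the highest (log2 fold change 0.46, adjusted p = 1.38e-06). Over all genes tested the calls were 40.1% higher and 39.7% lower, with a median log2 fold change of 0.015.

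Of 13 transcription factors and cofactors known to work with SWI/SNF in muscle, 6 were higher and 4 lower, against 40.1% and 39.7% of all genes tested. The highest was Myog (log2 fold change 7.45, adjusted p = 1.31e-18) and the lowest was Tcf3, an E protein that pairs with MyoD (log2 fold change -1.33, adjusted p = 9.29e-14). Of the other subunits of the complex, Brd7 of PBAF averaged 113 ± 3.97 CPM in differentiating cells and 71.9 ± 3.20 CPM before differentiation (log2 fold change 0.65, adjusted p = 6.74e-10), while Arid2 of the same complex was at -0.19 on the log2 scale (adjusted p = 0.00303), Smarce1 at -0.36 (adjusted p = 5.63e-07) and Brd9 at -0.31 (adjusted p = 9.86e-05).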
